A study of Homo sapiens with 2 samples.

Results

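The genes that make microRNAs and load them into Argonaute proteins were described in HEK293T cells, an established human line of embryonic kidney origin with the large T antigen of SV40. The 10 genes were chosen by name, as DROSHA, DGCR8, XPO5, DICER1, TARBP2, PRKRA, AGO1, AGO2, AGO3 and AGO4, and each was found by its Ensembl identifier among the 57736 genes of the deposited tables. Poly(A)+ RNA was sequenced from untreated wild type cells in 1 group of 2 replicates, so no condition was compared with another. The labels do not say whether the replicates came from separate cultures. The p-values below set the difference between these libraries against the sampling of reads alone, and such a difference may be technical. HEK293T is 1 established line, and no other line is part of these data.

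MicroRNAs are short RNAs that lower the output of mRNAs carrying a matching site. A long primary transcript is cut in the nucleus by the microprocessor, formed by the nuclease DROSHA and the RNA-binding protein DGCR8. The resulting hairpin is carried to the cytoplasm by exportin 5, the product of XPO5, and is cut again by DICER1 together with its cofactors TARBP2 and PRKRA. The short duplex is then loaded into an Argonaute, where the strand that stays guides it to its targets. Among the human Argonautes AGO2 is best known as the slicer that cuts fully matched targets.

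Some members also contain microRNA genes, whose mature sequences are shown because the same gene holds both an mRNA and a hairpin. Each is written 5′ to 3′ with its seed, bases 2 to 8, in capitals, from RefSeq (GRCh38.p14). The 88 nt hairpin gene MIR3618 at chr22:20073269-20073356 (GRCh37, plus strand) lies whole within a DGCR8 exon, in its untranslated part. The 85 nt hairpin gene MIR1306 at chr22:20073581-20073665 lies whole within a DGCR8 exon and overlaps its coding sequence. MIR3173, of 68 nt, lies at chr14:95604256-95604323 in DICER1 outside its exons.
hsa-miR-3618: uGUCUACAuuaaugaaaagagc
hsa-miR-1306-5p: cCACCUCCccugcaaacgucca
hsa-miR-1306-3p: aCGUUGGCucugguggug
hsa-miR-3173-5p: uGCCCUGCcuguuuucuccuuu
hsa-miR-3173-3p: aAAGGAGGaaauaggcaggcca
No 2 of these seeds were the same. The 3 microRNA genes were listed at 0 estimated counts in both replicates, while DGCR8 and DICER1 themselves had over 1000 counts in each. MIR3618 and MIR1306 lie on the strand of the DGCR8 exon that holds them, so their reads also fit DGCR8, and their 0 is the outcome of sharing those reads out. For MIR3173, which lies in no exon of DICER1, a count of 0 allows up to 3 counts. Poly(A) selection is not made to take up hairpins or mature microRNAs, which carry no tail.

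The Argonautes are close relatives, and a stretch of coding exon 12 shows how far a 50-base read can tell them apart. It was the 50-base window of AGO1, within 1 coding exon, with the fewest differences from AGO3 and AGO4 together. Bases in capitals differ from AGO1. The windows lie at chr1:36372597-36372646 (AGO1), chr1:36492776-36492825 (AGO3) and chr1:36299652-36299701 (AGO4), all on the plus strand of GRCh37.
AGO1: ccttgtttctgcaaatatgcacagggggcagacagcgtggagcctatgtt
AGO3: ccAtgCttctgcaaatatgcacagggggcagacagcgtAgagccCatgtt
AGO4: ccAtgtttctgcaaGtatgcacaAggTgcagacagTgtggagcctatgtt
AGO3 differed from AGO1 here at 4 bases and AGO4 at 5. Over windows of this length that lie within 1 coding exon, the fewest differences between any pair of Argonautes were 2, between AGO1 and AGO3, and none of the 6 pairs held an identical window. Windows across exon junctions were not part of this comparison. AGO1, AGO3 and AGO4 also lie side by side. AGO4 (chr1:36273617-36323491) is followed by AGO1 (chr1:36335409-36396133) after 11917 bp, and AGO1 by AGO3 (chr1:36396319-36538101) after 185 bp.

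The libraries held 10593491 and 10104118 estimated counts, in which reads that fit several genes are shared out among them. Levels are given as TPM, in which counts are divided by transcript length and every library is brought to one common sum. All 10 members reached a TPM of 1 in each replicate, the level called detected here, as did 27.7% of all genes and 63.7% of protein-coding genes. Of 10 kidney epithelial markers 2 reached this level, PODXL (TPM 16.6 ± 1.24) and LRP2 (TPM 9.12 ± 1.19, SD, n = 2). UMOD, AQP2, SLC34A1 and SLC12A3 were at 0 counts in both replicates. Of 8 markers of blood, endothelial and connective tissue cells with a row in the tables, COL1A1 alone was above 1 in both replicates, with a TPM of 8.89 ± 1.94 (SD, n = 2). In such bulk samples fewer cells with a transcript and less transcript per cell cannot be told apart.

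The microprocessor and the export factor gave the highest levels of the 10 genes in XPO5 and DROSHA, whereas DGCR8 was lower. XPO5 (chr6:43490072-43543775, minus strand) had a TPM of 124 in replicate 1 and 108 in replicate 2. DROSHA (chr5:31400601-31532303, minus strand) had 113 and 103. XPO5 was above DROSHA within each replicate, in TPM, in counts and in counts over a fixed exon length (the total length of the annotated exons). The TPM of XPO5 in replicate 2 lay below that of DROSHA in replicate 1, however. In posterior mean TPM, the deposited estimate to which the 95% intervals belong, the order turned in replicate 2, with 109 for XPO5 and 112 for DROSHA. DGCR8 (chr22:20067744-20099400, plus strand), the partner that recognises the hairpin stem, had a TPM of 46.5 in replicate 1 and 46.1 in replicate 2. It lay below DROSHA in both replicates, and the ratio of DGCR8 to DROSHA was 0.428 ± 0.0256 (SD, n = 2) on the TPM scale. On this scale the mean level of XPO5 exceeded that of 91.1% of detected protein-coding genes, that of DROSHA 90.3% and that of DGCR8 73.5%.

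The genes of the dicing step lay in the middle of the pathway. DICER1 (chr14:95552565-95624347, minus strand), the nuclease that removes the hairpin loop, had a TPM of 55.8 in replicate 1 and 71.5 in replicate 2. TARBP2 (chr12:53894705-53900215, plus strand) had a TPM of 50.2 and 53.1. PRKRA (chr2:179296019-179316239, minus strand) had 51.6 and 46.3. TARBP2 and PRKRA encode related double-stranded RNA-binding proteins that bind DICER1, and their values overlapped between replicates. Among detected protein-coding genes the mean TPM of DICER1 exceeded 81.3%, that of TARBP2 76.2% and that of PRKRA 74.9%. Over a fixed exon length the values were 77.6% for DICER1, 64.3% for TARBP2 and 67.9% for PRKRA. DICER1 was higher than both cofactors in each replicate, but the 95% intervals of DICER1 and TARBP2 were separate in 1 replicate only. These intervals are given in the tables for the posterior mean TPM and describe read sampling and read sharing, not the spread between cultures. The cofactors together had 1.61 ± 0.306 times the TPM of DICER1 (SD, n = 2).

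**Figure D1:**
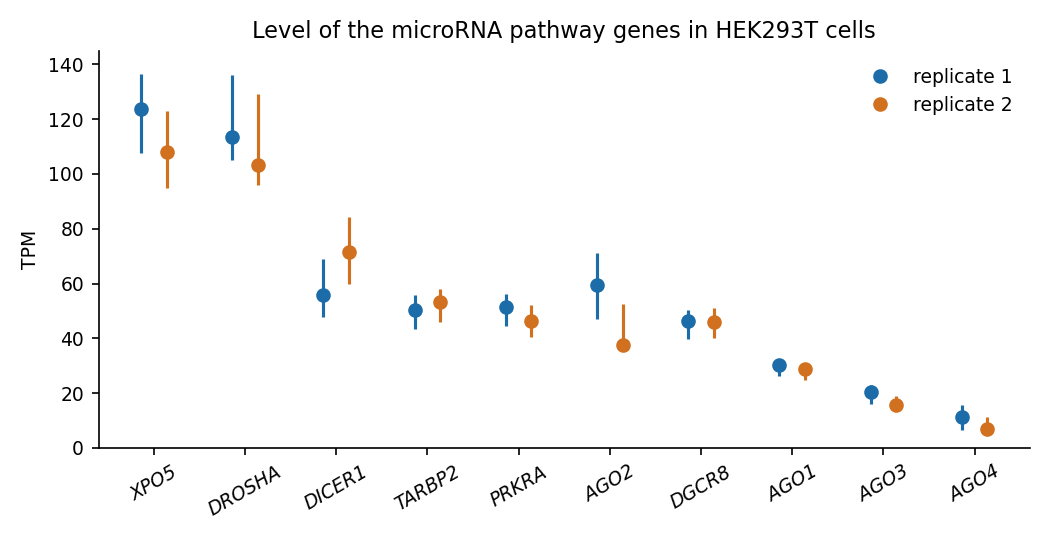
TPM (y axis) of each gene, ordered by mean TPM, in replicate 1 (blue) and replicate 2 (orange); points are deposited TPM values and lines the 95% interval of the posterior mean TPM. XPO5 and DROSHA lie above 100 in both replicates, AGO1, AGO3 and AGO4 are lowest, and the replicates of AGO2 are the farthest apart. The points of AGO1 lie just above its lines.

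Among the Argonautes AGO2 had the highest TPM and AGO4 the lowest. AGO2 (chr8:141530255-141645732, minus strand) had a TPM of 59.4 in replicate 1 and 37.4 in replicate 2. AGO1, its relative without marked slicing activity, had 30.3 and 28.8. AGO2 was above AGO1 in both replicates, yet its own values differed 1.59-fold. AGO3 had a TPM of 20.3 in replicate 1 and 15.7 in replicate 2. AGO4 had 11.2 and 7.0, a 1.60-fold difference. AGO3 lay above AGO4 in both replicates, and both lay below AGO1. Among detected protein-coding genes the mean TPM of AGO2 exceeded 74.7%, that of AGO1 60.0%, that of AGO3 44.8% and that of AGO4 27.8%, so AGO3 and AGO4 lay below the median of 21.2. AGO2 took 49.0% of the summed Argonaute TPM in replicate 1 and 42.1% in replicate 2, and AGO1 took 25.0% and 32.4%. The summed TPM of the 4 Argonautes was 121 in replicate 1 and 88.9 in replicate 2.

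The reads themselves gave another order of the Argonautes. AGO1 drew 2014 estimated counts from replicate 1 and 1874 from replicate 2. AGO2 had 812 and 745, AGO3 had 727 and 702, and AGO4 had 246 and 231. In counts AGO1 held 52.9% ± 0.176 of the 4 genes and AGO2 21.2% ± 0.281 (SD, n = 2). The replicates were far closer in counts than in TPM, and AGO1 was 2.50 ± 0.0248 times AGO2 in counts but 0.639 ± 0.183 times AGO2 in TPM (SD, n = 2).

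What lies between counts and TPM is the length that was assigned to each gene, a mean over its annotated transcripts weighted by their estimated abundance. For AGO2 it was 1881 nt in replicate 1 and 2819 nt in replicate 2, a 1.5-fold difference. For AGO4 it was 2993 nt and 4644 nt, and for AGO3 4862 nt and 6262 nt. These Argonautes were given the shorter length in the replicate in which their TPM was higher. AGO1, with 8962 nt and 9115 nt, was given the longest length of all members. Its 2 listed transcripts span 3996 and 13712 nt, whereas the 10 of AGO2 span 309 to 14595 nt and the 3 of AGO4 span 297 to 7272 nt in the annotation used here, which is later than that of the study.

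DICER1 went the other way, with 5010 nt in replicate 1 and 4190 nt in replicate 2 at 2066 and 2128 counts. The size of the length difference between replicates was set beside that of 9627 protein-coding genes whose count reached 100 in each library, where the median was 1.05-fold. AGO4 exceeded 99.5% of those genes, AGO2 99.1%, AGO3 96.1% and DICER1 90.3%. DROSHA exceeded 25.4% and AGO1 27.5%, so the members were not alike in this respect.

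**Figure D2:**
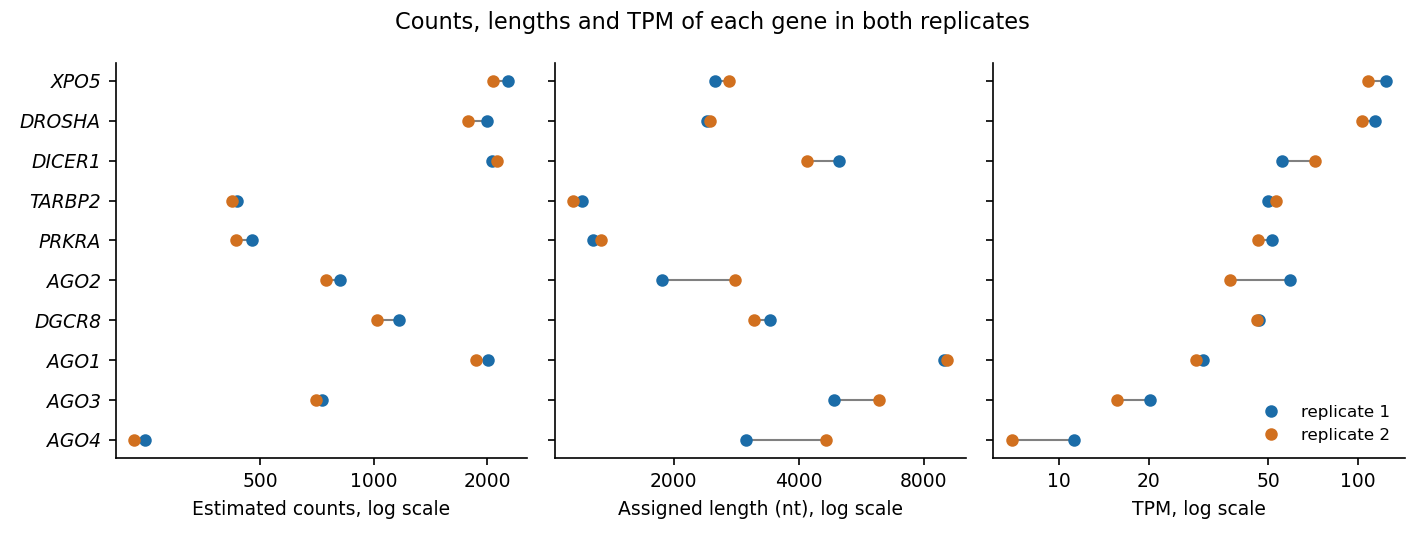
Estimated counts, assigned length in nt and TPM (x axes, all on log scales) of each gene (rows) in replicate 1 (blue) and replicate 2 (orange), joined by a grey line. The replicates nearly coincide in counts for AGO2, AGO3 and AGO4, but their lengths differ 1.5-, 1.29- and 1.55-fold and their TPM values are shifted in the opposite direction.

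Both replicates were then given the same length, the mean of their effective lengths. The replicates of AGO2 moved together, to levels of 47.5 and 44.9, and those of AGO4 to 8.81 and 8.51. The replicates of DGCR8, near each other in TPM, moved apart to 48.8 and 43.9. In replicate 2 DGCR8 had both fewer counts, 1020 against 1166, and a shorter length, 3130 against 3410 nt. The share of AGO2 among the Argonautes was then 45.2% ± 0.473 (SD, n = 2), where by construction only the counts differ between replicates. As this length is taken from the lengths behind the TPM, it is no separate check of the share in TPM. When each gene was instead given the total length of its annotated exons, AGO1 came first, with 54.9% ± 0.124 of the summed level, and AGO2 had 19.2% ± 0.234 (SD, n = 2). The exon length was 15847 nt for AGO2 and 13808 nt for AGO1. It joins the exons of all listed transcripts, so it exceeds the longest single transcript, of 14595 nt for AGO2 and 13712 nt for AGO1. The order of AGO1 and AGO2 therefore turned with the length used, and which length is nearer to the transcripts present in these cells was not tested. The intervals carry part of this. For AGO2 the posterior SD of the count was 0 in both replicates, whereas the interval of its TPM ran from 47.2 to 71.2 in replicate 1 and from 35.2 to 52.5 in replicate 2.

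**Figure D3:**
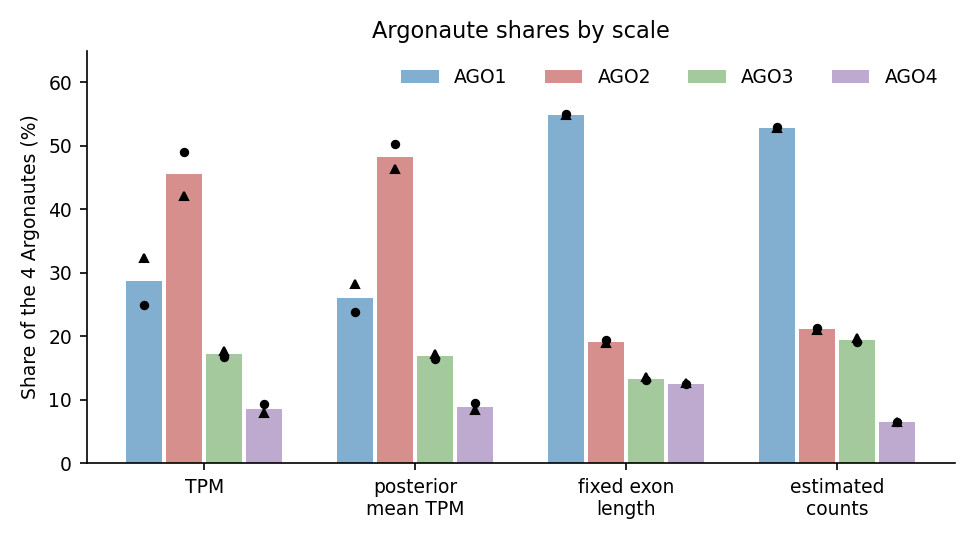
Share of each Argonaute in the sum of the 4 (y axis, percent) as TPM, posterior mean TPM, counts over a fixed exon length and estimated counts; bars are means of 2 replicates, circles replicate 1 and triangles replicate 2. AGO2 leads with 45.6% in TPM, and AGO1 leads with 54.9% over a fixed exon length and 52.9% in counts.

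Ordered by mean TPM, the members ran from XPO5 (116 ± 11.2) over DROSHA (108 ± 7.21), DICER1 (63.7 ± 11.1), TARBP2 (51.6 ± 2.06), PRKRA (48.9 ± 3.73), AGO2 (48.4 ± 15.5), DGCR8 (46.3 ± 0.304), AGO1 (29.5 ± 1.07) and AGO3 (18.0 ± 3.20) to AGO4 (9.11 ± 2.98), each with its SD and n = 2. Neighbours were called apart where neither the replicate values nor the 95% intervals of either replicate overlapped. By this rule DROSHA was apart from DICER1, DGCR8 from AGO1, AGO1 from AGO3 and AGO3 from AGO4. The TPM of AGO1 lay above its own interval in both replicates, which ran from 26.2 to 29.8 in replicate 1 and from 24.7 to 28.3 in replicate 2. XPO5 and DROSHA were not apart, nor were the neighbours from DICER1 to DGCR8. An exact permutation test of 2 values against 2 was not run, since it cannot reach the threshold. Of all 45 pairs of members 34 were apart in TPM, and in 30 of these the replicate values kept apart in the same direction over fixed exon lengths. Among the 34 pairs, the means turned in 3, with AGO1 below AGO2, TARBP2 and PRKRA in TPM and above them over fixed exon lengths. The fixed exon length was 4090 nt for TARBP2 and 3885 nt for PRKRA, well beyond their longest listed transcripts of 1855 and 2103 nt. DGCR8 stayed above AGO1 in the means, with 38.2 against 36.0 over fixed lengths, but its replicates no longer kept apart.

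Ratios between the processing steps were also taken on both scales. XPO5 was 1.86 ± 0.502 times DICER1 in TPM and 1.64 ± 0.142 times over fixed exon lengths. DROSHA was 1.74 ± 0.416 times DICER1 in TPM and 1.45 ± 0.150 times over fixed exon lengths (SD, n = 2). XPO5 and DROSHA stayed above DICER1 in both replicates on both scales. In counts, which do not correct for length, XPO5 was 1.04 ± 0.0898 and DROSHA 0.901 ± 0.0930 times DICER1 (SD, n = 2). The ratio of XPO5 to DICER1 in counts was 1.10 in replicate 1 and 0.976 in replicate 2.

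To ask whether the libraries differed in these genes by more than the sampling of reads, rounded counts were compared by an exact binomial test, two-sided, over 17920 genes with Benjamini-Hochberg adjustment. It compares these libraries and not conditions. At an adjusted p of 0.05 none of the 10 members differed, under the main setting or any of the 5 alternatives of this test, against 3.87% of all genes tested. At an unadjusted p under 0.05 the count was 1 member, DICER1, against 13.3% of all genes. DICER1 had a log2 ratio of counts, replicate 2 to replicate 1, of 0.12 (95% counting interval 0.03 to 0.21), with an exact binomial p of 0.00719 and an adjusted p of 0.120, which ranged from 0.108 to 0.198 under the alternatives. DGCR8 had a log2 ratio of -0.12 (interval -0.24 to 0.01) and DROSHA of -0.09 (interval -0.18 to 0.00). AGO2, AGO3 and AGO4, whose TPM values differed most, had log2 count ratios of -0.05, 0.03 and -0.01. The widest interval was that of AGO4, the member with the fewest counts, from -0.28 to 0.25. The median count ratio of the members was 1.04-fold and their median TPM ratio 1.13-fold, beside 1.06-fold and 1.08-fold in the 9627 protein-coding genes. Intervals and limits describe counting error alone, as PCR copies of a molecule are counted as separate reads.

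**Figure D4:**
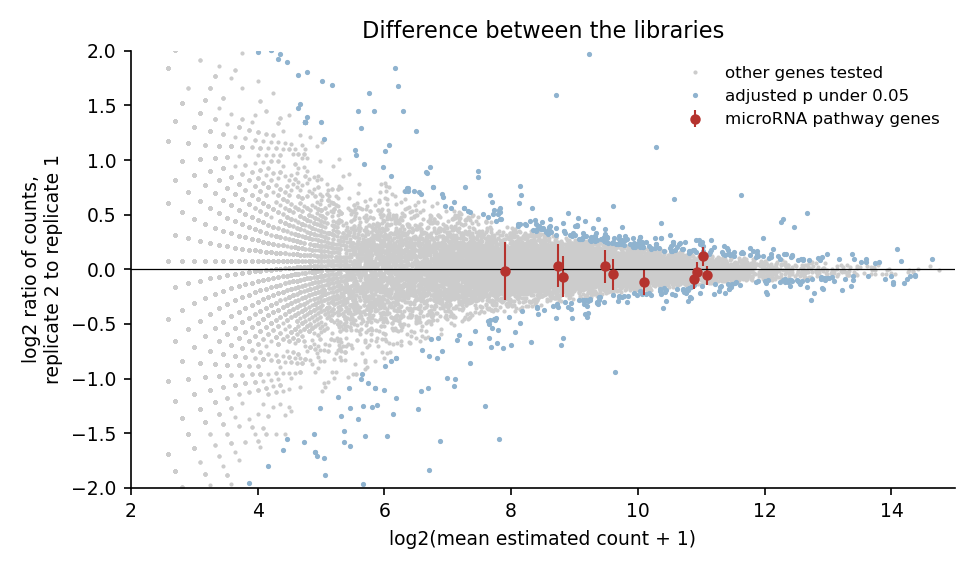
Log2 ratio of counts, replicate 2 to replicate 1 (y axis), against log2 of the mean estimated count plus 1 (x axis) for all genes tested; grey points are genes not called, light blue points genes with an adjusted p under 0.05 and red points the 10 microRNA pathway genes with 95% counting intervals. The red points lie between -0.12 and 0.12; 240 genes beyond 2 on the y axis and 13 beyond the x axis are not drawn.

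By the posterior SD, sharing reads out among genes left little spread in these counts. The posterior SD of the count was at most 0.415% of the count, in DGCR8, and it was 0 in both replicates for DROSHA, TARBP2 and AGO2. No 50-base window of a listed transcript was shared between 2 members. The largest share of windows found on the same strand of another gene was 1.64%, in AGO3, whose 345 such windows were spread over 248 genes. DGCR8 shared 75 windows, 39 with MIR3618 and 36 with MIR1306. On the opposite strand the overlaps were larger, with 21.6% of the windows of PRKRA, 10.5% of those of TARBP2 and 5.85% of those of DGCR8. PRKRA overlaps CHROMR, a long noncoding RNA with 140 counts in replicate 1 and 125 in replicate 2, against 475 and 430 for PRKRA. XPO5 overlaps POLR1C, a subunit gene of RNA polymerases I and III with a TPM of 68.1 and 57.8, and DICER1 overlaps DICER1-AS1, with a TPM of 2.78 and 4.66. All 435 such windows of DGCR8 were those of a long noncoding RNA without a symbol, at 0 counts in both replicates. Its posterior SD was 2.54 counts in replicate 1 and 4.08 in replicate 2, so its 0 is also an outcome of sharing reads out. The windows of TARBP2 on the opposite strand were likewise of a long noncoding RNA without a symbol. It had 26 counts in replicate 1 and 24 in replicate 2. DGCR8 also meets TRMT2A at its last bases, with a TPM of 99.7 and 108, but no window was shared with TRMT2A. The counting is not stated to use strand. PRKRA and CHROMR had the same posterior SD of the count, 0.55 in replicate 1 and 0.78 in replicate 2. PRKRA shared no window on its own strand, so reads of these 2 genes were shared out across strands. Reads of a member and of its antisense partner therefore cannot be told apart in the overlap. In all, 14 annotated genes overlap a member on the opposite strand, of which 12 have a row and 8 were detected. On the same strand 5 overlap, of which 4 have a row and 1 was detected. The TPM threshold also passes short genes with few counts, such as SCARNA15 opposite XPO5, with 1 count in replicate 1 and 2 in replicate 2.

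The wider pathway was described by lists of its other genes. All 11 genes that assist primary processing and export were detected, and their median mean TPM was 411, beside 48.7 for the 10 members, 21.2 for detected protein-coding genes and 6.5 for all protein-coding genes. HNRNPA1, an RNA-binding protein that helps process some primary microRNAs, was highest with a TPM of 1577 ± 38.3 (SD, n = 2). Its posterior SD was 66.6 counts of 16142 in replicate 1 and 54.1 of 15198 in replicate 2. METTL3, which methylates adenosines in RNA, was lowest with 62.8 ± 1.98 (SD, n = 2). All 10 genes of Argonaute loading were detected too, with a median of 309. The heat shock protein HSPA8 was highest, at a TPM of 1411 ± 0.912, and the cochaperone FKBP5 lowest, at 35.1 ± 1.09 (SD, n = 2).

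Downstream of the Argonautes, all 25 silencing effectors with a row were detected, with a median TPM of 57.6, and DCP1A was not matched to a row. PABPC1, the cytoplasmic poly(A)-binding protein, was highest with a TPM of 1687 ± 10.3, and TNRC6C, a scaffold that binds Argonautes, was lowest with 12.8 ± 1.17 (SD, n = 2). Of 13 tailing, editing and turnover factors 12 were detected, with a median TPM of 38.6. ADAR, which edits adenosines in double-stranded RNA, was highest with 126 ± 7.0 (SD, n = 2). LIN28A, which blocks let-7 maturation, was lowest with a TPM of 0.27 in replicate 1 and 0.20 in replicate 2. Its paralog LIN28B, named after its values were seen, had a TPM of 37.4 and 39.8. None of the 4 PIWI genes, the germline relatives of the Argonautes, was detected. The highest, PIWIL4, had 3.04 and 3.81 counts, and the lowest, PIWIL1, had 1 and 0.

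**Figure D5:**
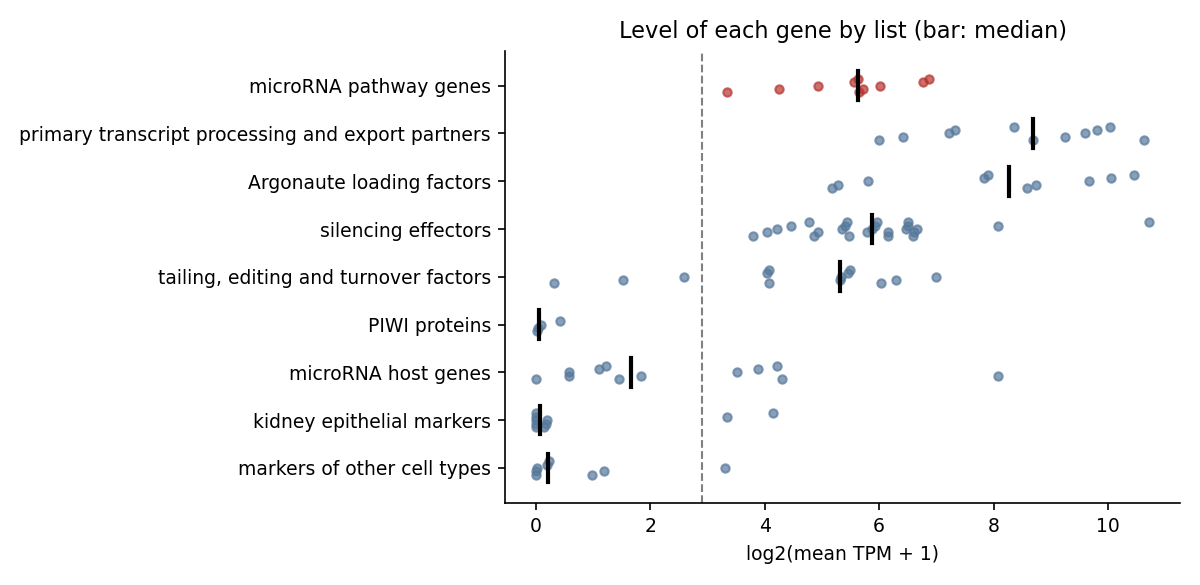
Level of each gene as log2(mean TPM + 1) (x axis) by list (rows); each point is a gene with a row in the tables, black bars are medians and the dashed line is the median of all protein-coding genes. The 10 microRNA pathway genes (red) lie to the right of the dashed line, the PIWI genes and most kidney markers near 0.

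The same test between the libraries called 10 of the 69 list genes that were tested, beside 3.87% of all genes and 6.72% of genes whose counts summed to 1000 or more. Of all genes 2.11% were called higher in replicate 2 and 1.75% higher in replicate 1. In the processing and export list 4 of 11 were called, all higher in replicate 1, SAFB 1.11-fold (adjusted p = 0.00969), SRRT 1.10-fold (0.0160), KHSRP 1.08-fold (0.000159) and HNRNPA2B1 1.04-fold (0.0342). In the loading list HSP90AA1 (1.06-fold, adjusted p = 3.93e-05) and PTGES3 (1.10-fold, 0.000296) were higher in replicate 2, and STIP1 (1.06-fold, 0.0400) was higher in replicate 1. DCP2, the decapping nuclease, was 1.12-fold higher in replicate 2 (adjusted p = 0.0493), and no tailing, editing or turnover factor was called.

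The genes of the wider lists nearest in level to a member were found by Euclidean distance on log2(TPM + 1) over the 2 replicates, among 75 genes. AGO1 was nearest to TNRC6B, another scaffold that binds Argonautes, at a TPM of 29.0 and 29.8 and a distance of 0.0796. TARBP2 was nearest to TSN, a subunit of a nuclease that removes the passenger strand, at 52.9 and 56.6 and a distance of 0.117. DGCR8 was nearest to ZSWIM8, a ubiquitin ligase adaptor that acts on Argonautes, at 42.4 and 45.4 and a distance of 0.133. With 2 replicates of 1 group such nearness describes a like level and no shared pattern.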

How the data were processed

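Poly(A)+ RNA of HEK293T cells was sequenced with 50-base reads. Per the labels, the authors used Trimmomatic 0.36, STAR 2.6.1c and RSEM 1.3.1 with GRCh37, and the methods name featureCounts with Ensembl 87 genes. The columns are those of RSEM. Estimated counts, TPM and FPKM were deposited by the authors. Assigned lengths, posterior SDs of counts and bounds of TPM intervals are scores deposited by the authors. A table of pooled reads was used only as an alternative.

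The members and lists were chosen with earlier results of these data known. Symbols and coordinates came from GENCODE 44 on GRCh37, which matched 96.1% of identifiers. Named are the members, genes overlapping them, the 3 nearest list genes, and of each list the highest, the lowest and those differing between libraries. Rounded counts of genes whose counts summed to 10 or more were tested by the exact binomial test with scipy 1.17.1 against library sizes scaled by TMM (edgeR 4.0.16). Log2 ratios used 0.5 added counts. The script was tested on simulated data. Fixed exon lengths were found for 97.1% of genes, and the mean length of the tables was used for the others. Windows were matched to GENCODE 44 transcripts.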

Additional observations from a re-analysis of the deposited data

How the results depend on the processing

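No paired analysis was possible because both libraries belong to 1 group. Of the 10 members, 3 kept their rank in estimated counts, 5 with posterior mean TPM and 5 over fixed exon lengths, and 7 to 8 without either replicate. The share of AGO2 among the Argonautes was 21.2% in estimated counts and 19.2% over fixed exon lengths, and 42.1 to 49.0% without either replicate. The DGCR8 to DROSHA ratio was 0.579 in estimated counts, 0.388 with posterior mean TPM and 0.617 over fixed exon lengths, and 0.410 to 0.446 without either replicate. The ratio of TARBP2 and PRKRA to DICER1 was 0.419 in estimated counts, and 1.39 to 1.82 without either replicate. The median level of the members was 32.9 over fixed exon lengths, and 46.2 to 50.9 without either replicate. The number of genes that differed between the libraries was 447 with posterior mean counts against 693. The cause was not tested beyond the lengths, which by construction are all that fixed lengths change. The number of pathway list genes detected was 67 without either replicate. The test between the libraries needs both of them and was not run without either. The mean of the effective lengths was chosen after the data were seen.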

Other observations

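Most of the 12 listed host genes of microRNAs had low levels in these libraries. DGCR8 and DICER1, which also hold microRNA genes, were not part of this list. Of 12 host genes 9 were detected in each replicate, with a median mean TPM of 2.16. The highest was MCM7, a coding gene of the replication helicase whose introns hold a microRNA cluster, with 276 in replicate 1 and 264 in replicate 2. The lowest was MIR100HG, with 0 counts in both replicates. Only MIR17HG and DLEU2 of the 10 host genes tested differed between the libraries by the exact binomial test with Benjamini-Hochberg adjustment, beside 3.87% of all genes. MIR17HG, host of the miR-17 cluster, had 199 counts in replicate 1 and 259 in replicate 2 (adjusted p = 0.0248). DLEU2, host of miR-15a and miR-16, had 83.4 and 133 (adjusted p = 0.00803). Both were higher in replicate 2, by 1.37-fold and 1.69-fold. Host transcripts are not a measure of the mature microRNAs, which were not measured here.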
